A study of Homo sapiens with 6 samples.

Results

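Cathepsins are the proteases that break down proteins inside lysosomes and endosomes. The 10 genes described here, CTSA, CTSB, CTSC, CTSD, CTSE, CTSH, CTSL, CTSO, CTSS and CTSZ, were taken by name from the 19402 genes of a count table, and each matched 1 gene identifier. They were chosen by their counts in the 2 groups below, CTSS for its lower counts in 1 of them and the other 9 as its relatives. Differences between the groups are therefore given for these genes as a description, without a test.

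The cells were CFPAC1, an established line of human pancreatic ductal adenocarcinoma, grown in IMDM with fetal bovine serum. Poly(A) RNA of 6 clone pools was sequenced. In 3 pools the clones were wild type (WT), and in 3 they carry the label IRF1-KO, for deletion of the interferon-induced transcription factor IRF1 with CRISPR-Cas9. All clones were isolated by dilution after infection with the plasmid that the labels spell lentiCRIPSv2. For IRF1-KO it carried wild-type Cas9 and a guide RNA against IRF1, and for WT the labels name no guide. No interferon treatment is named for these 6 libraries. Each library comes from a pool of clonal lines, and the labels do not say how many clones a pool held or whether pools were grown on separate occasions, so errors measure only the spread between these pools.

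Most cathepsins are made as inactive precursors, sent to the lysosome by the mannose 6-phosphate sorting route, and activated there by acid. They fall into classes by the chemistry of the active site. CTSB, CTSC, CTSH, CTSL, CTSO, CTSS and CTSZ are cysteine proteases of the papain family, CTSD and CTSE are aspartic proteases, and CTSA is a serine carboxypeptidase. Cystatins and some serpins inhibit the cysteine members. CTSS stays active at neutral pH and cuts the invariant chain (the product of CD74) in antigen-presenting cells, a step that lets MHC class II molecules load peptides, and it is known as a gene induced by interferon-gamma.

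Total counts ranged from 16413682 to 28258075 per library. IRF1, the targeted gene, had 82.6 to 91.3 CPM (counts scaled by the effective size of each library) in WT and 117 to 132 CPM in the IRF1-KO pools, a log2 fold change of 0.51 ± 0.10 (SE) with a Benjamini-Hochberg adjusted p of 0.135 from the edgeR quasi-likelihood test, short of the threshold of 0.05. The IRF1-KO labels are thus not matched by less IRF1 transcript, and counts over all exons do not show whether the protein was lost. The ductal epithelial markers checked had summed levels of 4438 to 7580 CPM in the WT pools and 5047 to 6957 CPM in the IRF1-KO pools, led by the keratin gene KRT8. CFTR, a marker of duct cells, stayed under 1 CPM in all 6 libraries. Of 12 leukocyte markers, 7 were under 1 CPM in every library.

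Promoter sequences were at hand for 7 of the 10 genes (RefSeq, GRCh38.p14, from 250 bases before to 50 after the annotated start). CTSS, CTSB and CTSO had no entry. The E-box CACGTG, the core of the element through which TFEB and its relatives bind many lysosomal genes, was in the windows of CTSA and CTSD, and in 7.26% of all 35116 windows. The 30-base stretches that hold it are shown because these are the only matches among the members, with the E-box in capitals, 5′ to 3′ on the strand of the gene. The CTSA stretch lies at chr20:45891289-45891318 (plus strand) and the CTSD stretch at chr11:1763957-1763986 (minus strand). Both lie inside the gene spans given below, as the RefSeq starts used here differ from the outer ends of those spans.
CTSA: ctgtCACGTGgcgccggagttCACGTGact
CTSD: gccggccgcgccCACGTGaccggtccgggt
CTSA holds the E-box at 2 places and CTSD at 1. Searched on both strands, the interferon-stimulated response element (3.57% of all windows), the shorter IRF core AANNGAAA (22.8%), which every such element contains, and the gamma-activated site TTCNNNGAA (7.66%) were in none of the 7 windows. The windows of CTSA, CTSD, CTSH, CTSL and CTSZ have 66.7% to 81% GC, where the median of all windows is 58.7%. The shares of all windows are not matched for GC content. These are matches of letters in 1 short window per gene, and binding was not measured.

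All 10 cathepsins were transcribed in CFPAC1, over a range of levels. Per kilobase of exon, CTSZ and CTSD stood highest in WT, at 87.6 ± 4.60 and 81.8 ± 14.4 CPM per kilobase (SD, n = 3 each). CTSL followed at 45.2 ± 12.1, CTSA at 36.0 ± 7.36, CTSB at 33.2 ± 4.41 and CTSC at 15.1 ± 3.01 CPM per kilobase. At the low end were CTSO at 8.85 ± 1.81, CTSS at 8.54 ± 4.67, CTSH at 7.48 ± 1.02 and CTSE at 1.42 ± 0.644 CPM per kilobase. Neighbours in this order whose WT ranges overlapped were CTSZ and CTSD, then CTSL, CTSA and CTSB, then CTSO, CTSS and CTSH. CTSS thus ranked 8th of 10 in WT, but its rank among CTSO and CTSH is not separated by the spread of the pools.

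**Figure D1:**
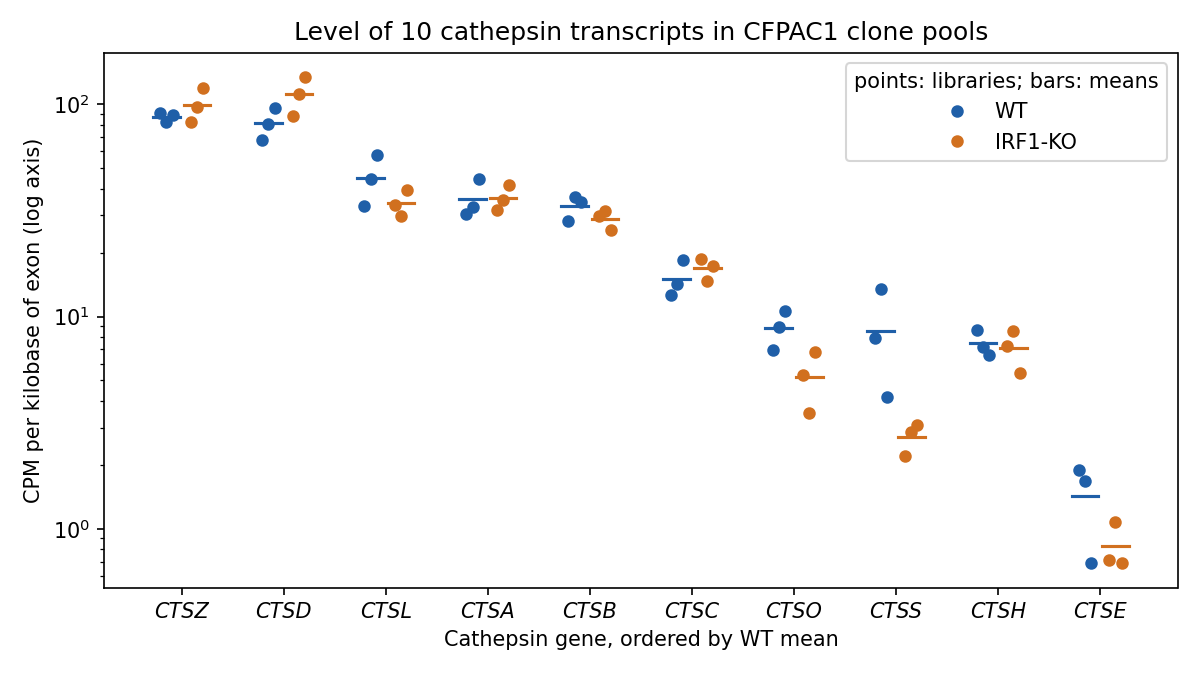
Level of each cathepsin transcript in CPM per kilobase of exon (log axis), by gene in the order of the WT mean. Points are single libraries (blue WT, orange IRF1-KO) and bars are group means. The 3 IRF1-KO points of CTSS, from 2.20 to 3.09, lie below all 3 WT points, which run from 4.19 to 13.5.

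In IRF1-KO CTSD came first at 112 ± 23.0 CPM per kilobase and CTSZ next at 99.5 ± 18.3 (SD, n = 3 each), with overlapping ranges. CTSS ranked 9th at 2.71 ± 0.460 CPM per kilobase, with a range that overlapped neither CTSO above it nor CTSE below it. In bulk RNA, fewer cells that transcribe a gene and less RNA per cell cannot be told apart. Summed over the 10 genes the level was 325 ± 36.7 CPM per kilobase in WT and 343 ± 46.9 in the IRF1-KO pools (SD, n = 3 each), so the groups overlapped in the cathepsin transcripts as a whole. Of that sum CTSS made up 2.74%, 4.17% and 1.16% in the WT pools, by number, and 0.733%, 0.846% and 0.786% in the IRF1-KO pools.

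CTSS (ENSG00000163131.11; GRCh38, chr1:150730188-150765792, minus strand) was the member with the largest fitted difference between the groups. It had 32.3, 54.9 and 17.1 CPM in the WT pools, by number, and 8.96, 11.6 and 12.6 CPM in the IRF1-KO pools. Every IRF1-KO pool was below every WT pool, and the nearest pair was WT replicate 3 and IRF1-KO replicate 3. Group means were 34.7 ± 19.0 CPM in the WT pools and 11.1 ± 1.87 CPM in the IRF1-KO pools (SD, n = 3 each). The fitted log2 fold change was −1.65 ± 0.40 (SE), which is 3.13-fold lower. These values rest on 355 to 1009 counts per WT library and 147 to 336 per IRF1-KO library. Of the 13388 genes counted deeply enough to be tested, 77 (0.575%) had a log2 fold change at or below that of CTSS.

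The WT pools differed among themselves in CTSS more than in any other member. The highest WT library was 3.22-fold above the lowest for CTSS, against 1.11-fold for CTSZ and 2.76-fold for CTSE, the next widest. In IRF1-KO the same ratio was 1.40 for CTSS. Leaving out WT replicate 2, the library with the most CTSS, gave a log2 fold change of −1.16, and leaving out WT replicate 3, the WT library with the least, gave −1.95. WT replicate 3 also had the lowest summed level of the ductal epithelial markers, 4438 CPM. The part of this in the CTSS values was not tested.

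CTSS was also compared with its relatives library by library. Set against its own WT mean on the log2 CPM scale, CTSS stood at 0.05, 0.81 and −0.87 in the WT pools, in the order of their numbers, and at −1.79, −1.42 and −1.30 in the IRF1-KO pools. The median of the other 9 cathepsins, set against their WT means in the same way, stood at −0.22, 0.00375 and 0.25 in WT and at −0.15, −0.01 and −0.16 in the IRF1-KO pools. The median of the 9 thus stayed inside its WT range in every IRF1-KO pool, while CTSS lay below its own. Single members among the 9 did leave their WT range in some IRF1-KO pools, CTSO in all 3, as their values below show. In the fit, the median log2 fold change of the 9 was −0.07 and the difference of CTSS from it −1.57. For all tested genes the median was −0.02.

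**Figure D2:**
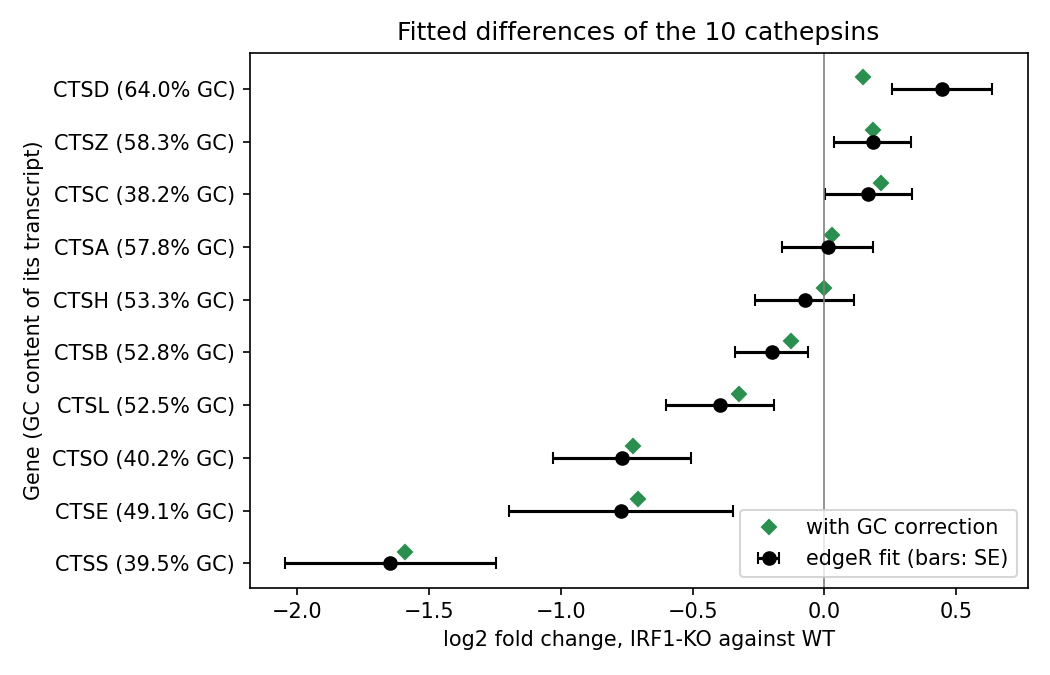
Log2 fold change of each cathepsin, IRF1-KO against WT, with GC content of the transcript beside the name. Black points are the edgeR fit with SE bars and green diamonds the same fit with the correction for GC content. CTSS stands at −1.65 and the other 9 between −0.77 and 0.45.

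CTSO and CTSE came next below zero. CTSO (ENSG00000256043.3; chr4:155924118-155953866, minus strand), a papain-family member, had 20.3, 26.1 and 30.8 CPM in the WT pools and 15.4, 10.2 and 19.7 CPM in the IRF1-KO pools. Its groups did not overlap either, though WT replicate 1 and IRF1-KO replicate 3 were close, and its log2 fold change was −0.77 ± 0.26 (SE). CTSE (ENSG00000196188.11; chr1:206009264-206023895, minus strand), an aspartic protease best known from the stomach lining, was the least abundant member. It had 5.03, 4.46 and 1.83 CPM in the WT pools and 1.89, 2.86 and 1.84 CPM in the IRF1-KO pools. WT replicate 3 was level with the IRF1-KO pools, so the groups overlapped, and the log2 fold change of −0.77 ± 0.43 (SE) rests on 31 to 92 counts per library.

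The other cysteine cathepsins had overlapping groups. CTSL (ENSG00000135047.15; chr9:87726109-87731469, plus strand) is a broad endopeptidase. It had 61.7, 82.8 and 107 CPM in the WT pools and 62.4, 55.3 and 73.1 CPM in the IRF1-KO pools (log2 fold change −0.40 ± 0.21, SE). CTSL and CTSV, its close copy, have similar sequences, and how reads that match both were counted is not given, so both values are uncertain to that extent. CTSB (ENSG00000164733.21, chromosome 8), which can also clip dipeptides from the end of a chain, had 207 to 268 CPM in the WT pools and 187 to 231 in the IRF1-KO pools (−0.20 ± 0.14). CTSH (ENSG00000103811.16; chr15:78921058-78949574, minus strand), an aminopeptidase, had 39.0 to 50.7 CPM in the WT pools and 32.1 to 50.6 in the IRF1-KO pools (−0.07 ± 0.19). CTSC (ENSG00000109861.16; chr11:88293592-88337761, minus strand), the dipeptidyl peptidase that activates granule serine proteases, had 143 to 210 CPM in the WT pools and 168 to 213 in the IRF1-KO pools (0.17 ± 0.17). CTSZ (ENSG00000101160.14; chr20:58995185-59007254, minus strand), a carboxypeptidase, had 169 to 187 CPM in the WT pools and 169 to 243 in the IRF1-KO pools (0.18 ± 0.15). In CTSH the difference was smaller than its standard error, and in CTSC and CTSZ it was close to it.

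CTSD and CTSA are the members with an E-box in the stretches shown above. CTSD (ENSG00000117984.14; chr11:1752755-1764573, minus strand), the main aspartic protease of lysosomes, had 208, 250 and 297 CPM in the WT pools and 271, 345 and 413 CPM in the IRF1-KO pools. IRF1-KO replicate 1 lay within the WT range, and the log2 fold change was 0.45 ± 0.19 (SE). Its transcript has the highest GC content of the 10, 64.0%, where the median tested gene has 48.5%. The 477 tested genes of more than 65% GC lay, at their median, −0.59 to −0.10 log2 CPM from their own means in the WT libraries and 0.10 to 0.46 in the IRF1-KO libraries. With a correction that takes each library's trend with GC content out of the fit, and with it any group difference that follows GC content, the log2 fold change of CTSD was 0.15. CTSA (ENSG00000064601.18; chr20:45890144-45898820, plus strand), which protects beta-galactosidase (GLB1) and neuraminidase (NEU1) in a complex, had 179 to 260 CPM in the WT pools and 186 to 245 in the IRF1-KO pools (0.01 ± 0.17). NEURL2 and PLTP overlap CTSA on the opposite strand, NEURL2 over 17.7% of its exon bases, and the strand setting of the counting is not given. CTSS, CTSO and CTSC have the lowest GC contents of the 10, 39.5%, 40.2% and 38.2%, and the correction left CTSS at −1.59.

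Of the 10 genes, 2 (CTSS and CTSO) had all IRF1-KO values below all WT values, against 6.75% of all tested genes, and none had all IRF1-KO values above, against 8.03%. None of the 10 was past an adjusted p of 0.05 with edgeR, against 0.127% of all tested genes. An unadjusted p under 0.05 was found for 3 (9.14% of all tested genes), and 1, CTSS, was called by DESeq2 (2.48%). CTSS was also called by edgeR without WT replicate 3, the WT library with the least CTSS, and not under the other 13 alternatives. As the contrast chose the members, these counts and calls describe them, are no test of them and support nothing further. Without any given library, and under each other setting tried, CTSS kept a negative log2 fold change, from −1.95 to −1.16. As its groups did not overlap, leaving out a library could not turn the sign, so only the size is informative.

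**Figure D3:**
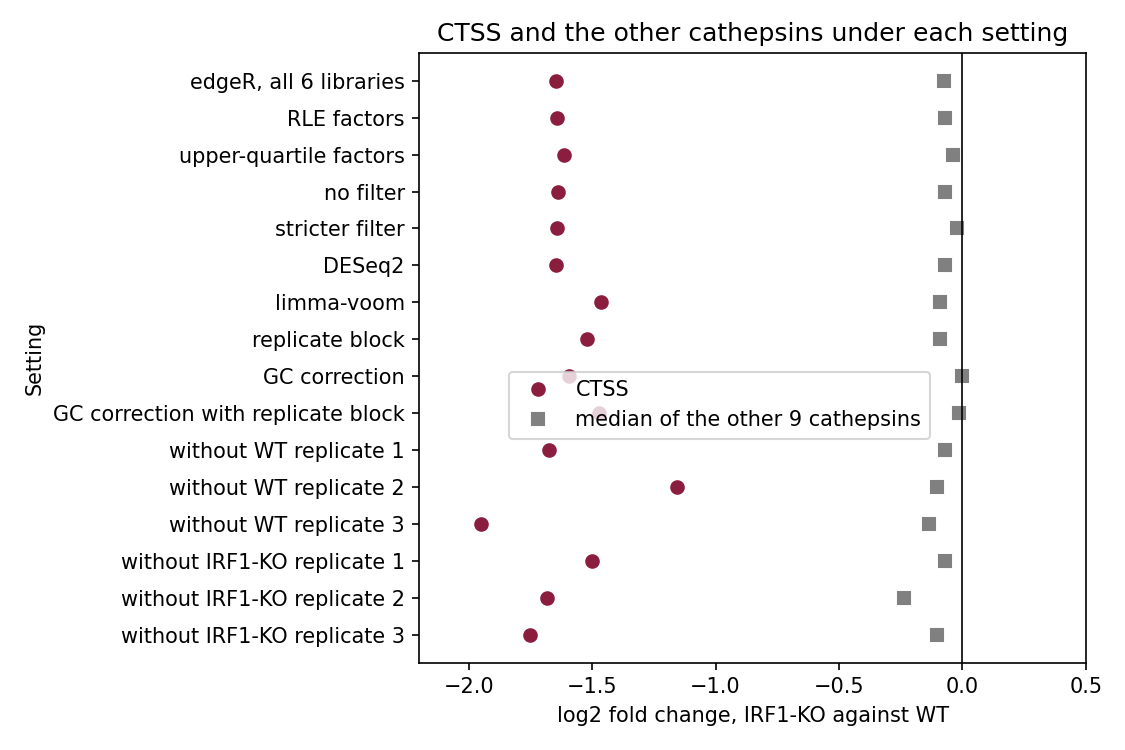
Log2 fold change (IRF1-KO against WT) of CTSS (red circles) and the median of the other cathepsins (grey squares) under each way of processing the counts. CTSS lies between −1.95 and −1.16 in all, and the grey squares between −0.24 and −0.000866.

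Of the genes that work with cathepsins, taken from 8 lists of 131 genes in all, 122 were tested and none was past the threshold in either direction, beside 0.127% of all tested genes (edgeR quasi-likelihood, Benjamini-Hochberg). With an unadjusted p under 0.05 stood 3 higher and 8 lower genes, 11 of 122, a share close to the 9.14% of all tested genes. By DESeq2 1 was called higher (ATP6V0C) and 2 lower (LAMP3 and HLA-DOB), 3 of 122, also close to the 2.48% of all tested genes. Their median log2 fold change was −0.01, beside −0.02 over all tested genes. Most lists of general lysosomal function lay near zero. The 30 tested hydrolases and cofactors had a median of 0.04, the 18 sorting genes 0.06, the 14 membrane proteins 0.08 and the 19 subunits of the vacuolar proton pump −0.09. The 3 tested MiT factors, which switch on lysosomal genes, had a median of −0.17. The partners of CTSA, GLB1 and NEU1, also named after their values were seen, had log2 fold changes of 0.000253 ± 0.12 and 0.00656 ± 0.13 (SE). Exons of GLB1, NAGPA and CD74 overlap those of TMPPE, ALG1 and TCOF1 over 1.46% to 5.84% of their bases. GLB1 and TMPPE lie on the same strand, so reads in their shared bases cannot be assigned to 1 gene. The other pairs lie on opposite strands, and as the strand setting is not given, it is uncertain whether their reads were separated.

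Single genes of these lists with the smallest p varied in direction. ATP6V0C, a membrane subunit of the proton pump with a transcript of 63.6% GC, had 39.4, 45.9 and 54.0 CPM in the WT pools and 67.7, 90.2 and 85.6 CPM in the IRF1-KO pools (log2 fold change 0.81 ± 0.16, SE; edgeR adjusted p = 0.144), and 0.53 with the GC correction. NAGPA, which uncovers the mannose 6-phosphate tag and is also GC-rich at 62.9%, was at 0.51 ± 0.18, and at 0.28 with the correction. LAMP3, an interferon-inducible membrane protein, was at −1.68 ± 0.49 (edgeR adjusted p = 0.315). PLA2G15, a lysosomal phospholipase, was at 0.38 ± 0.17, and MITF, a MiT factor, at −0.17 ± 0.11.

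Among other lysosomal peptidases, 11 of 13 were tested, with a median log2 fold change of 0.14 and a range from −0.29 to 0.60. CPVL, a serine carboxypeptidase, had the smallest p, at −0.29 ± 0.14 (SE). The next 2 were chosen after their values were seen. CTSK, the bone-resorbing cathepsin, lies 30415 bases from CTSS on chromosome 1 and had 2.98 to 4.95 CPM in the WT pools and 2.41 to 3.78 in the IRF1-KO pools. Its groups overlapped, with a log2 fold change of −0.29 ± 0.33. LGMN, the endopeptidase that helps to mature several cathepsins, had 55.2 to 127 CPM in the WT pools and 62.7 to 134 in the IRF1-KO pools (0.14 ± 0.36).

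For inhibitors of cathepsins the median log2 fold change was −0.43, beside −0.02 over all tested genes. Of the 16 genes 12 were tested, with a range from −1.72 to 0.68, and 9 of these were below zero. With edgeR 1 of the 12 had an unadjusted p under 0.05, a share of 8.33%, beside 9.14% of all tested genes. None had groups that separated, against 6.75% of all tested genes that did so lower and 8.03% higher. SERPINB1, an inhibitor of granule serine proteases, had the smallest p, with 147 to 205 CPM in the WT pools and 129 to 149 in the IRF1-KO pools (−0.40 ± 0.15, SE; edgeR adjusted p = 0.464). The cytosolic cystatin gene CSTB, named after its values were seen, had 338, 572 and 207 CPM in the WT pools and 261, 281 and 210 in the IRF1-KO pools. Its WT pools were ordered as those of CTSS, with replicate 2 highest and replicate 3 lowest, but its groups overlapped. CST3, which encodes the secreted cystatin C and was also named after its values were seen, had 64.6 to 96.4 CPM in the WT pools and 66.5 to 85.2 in the IRF1-KO pools (−0.04 ± 0.17).

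The MHC class II pathway, in which CTSS acts, had 14 of 15 tested genes below zero. The median log2 fold change of the 15 was −0.68, beside −0.02 over all tested genes. With edgeR none was past the threshold and 6 lower genes of the 15 had an unadjusted p under 0.05 (9.14% of all tested genes in either direction), while 1 of the 15 was called by DESeq2 (2.48% of all tested genes). HLA-DOB had the smallest p (−1.04 ± 0.23, SE; edgeR adjusted p = 0.179), and reads of related HLA genes may be shared with it. CD74, the substrate of CTSS, and HLA-DRA were singled out after their values were seen. CD74 had 694, 418 and 480 CPM in the WT pools and 248, 433 and 175 CPM in the IRF1-KO pools (−0.89 ± 0.35). IRF1-KO replicate 2 thus lay inside the WT range. HLA-DRA had 319, 162 and 203 CPM in the WT pools and 114, 174 and 66.1 in the IRF1-KO pools (−0.95 ± 0.39), with the same overlap. Of the 15 tested genes 2, HLA-DOB among them, had all IRF1-KO values below all WT values, against 6.75% of all tested genes. Within WT the library with the most CTSS, replicate 2, had the least CD74 and HLA-DRA. This did not hold for every gene of the list, as HLA-DOB was highest in that library (8.26, 9.68 and 6.68 CPM in the WT pools).

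The 5 genes whose values ran closest to CTSS over the 6 libraries were found by the root mean square difference of log2 CPM after each gene was centred on its own mean, among 12081 genes with a mean of at least 2 CPM. They were APOBEC3G, an antiviral cytidine deaminase (0.28), CEACAM1, a cell adhesion protein (0.28), RALGPS1, an exchange factor for Ral GTPases (0.31), ATP6V1FNB (0.34) and LAMP3 (0.34), against a median of 0.92 over the candidates. APOBEC3G had 23.4, 41.5 and 14.7 CPM in the WT pools and 8.72, 14.9 and 10.0 CPM in the IRF1-KO pools, and CEACAM1 had 43.2, 70.4 and 36.9 in the WT pools and 13.7, 23.7 and 20.2 in the IRF1-KO pools. In all 5, as in CTSS, WT replicate 2 was highest and WT replicate 3 the lowest of the WT pools. Choosing genes by closeness to CTSS favours this order, so it describes the choice. RALGPS1 and ATP6V1FNB had means of 3.50 and 3.21 CPM in WT and are measured less precisely. APOBEC3G has close copies in its family that may share reads. None of the 5 was past the threshold (edgeR adjusted p from 0.166 to 0.545). As the same values chose the 5, this is a description only.

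**Figure D4:**
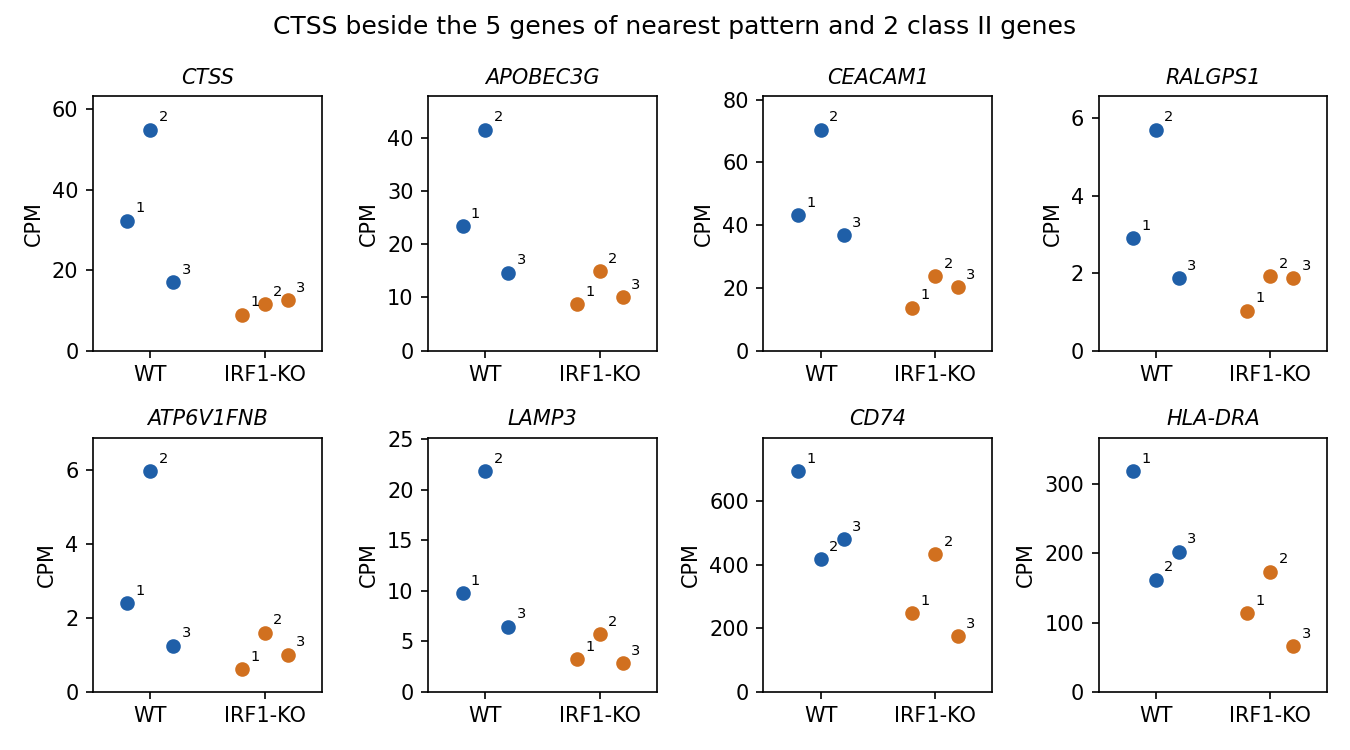
CPM of CTSS, of the 5 genes of nearest pattern and of CD74 and HLA-DRA in each library (linear axes from 0), with the replicate number beside each point. WT replicate 2 is the highest point for CTSS, at 54.9 CPM, and for the 5 nearest genes, which were chosen by their closeness to CTSS. It is the lowest WT point for CD74, at 418 CPM, and HLA-DRA.

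As CTSS is abundant in macrophages and other leukocytes, their markers were read in the same libraries. TYROBP was at 0 in all 6 libraries, and PTPRC, the pan-leukocyte CD45 gene, lay between 0.04 and 0.12 CPM. The summed level of the 12 markers was 171 to 217 CPM in the WT pools and 145 to 182 in the IRF1-KO pools, most of it CD68, a lysosomal membrane protein gene at a mean of 146 CPM. Of the 12, 5 passed the filter on low counts, and they are named here after their values were seen. LYZ, the lysozyme gene, had 28.8, 75.0 and 25.6 CPM in the WT pools and 13.4, 22.5 and 24.5 in the IRF1-KO pools, with its highest level in WT replicate 2 as for CTSS. CD14, a monocyte receptor, was highest in WT replicate 3, with 0.33, 0.92 and 2.31 CPM in the WT pools and 1.74 to 1.98 in the IRF1-KO pools, a log2 fold change of 0.64. ITGAM, an integrin of myeloid cells, had 1.06 to 2.13 CPM in the WT pools and 1.16 to 2.02 in the IRF1-KO pools, a log2 fold change of −0.11. The log2 fold change was −1.09 for LYZ, −0.78 for ITGAX, another myeloid integrin gene, and −0.06 for CD68. The 7 fibroblast markers summed to 33.1 to 50.6 CPM in the WT pools and 39.1 to 77.4 in the IRF1-KO pools, most of it COL1A1, and the 4 endothelial markers to 5.31 to 7.21 and 6.98 to 8.17 CPM. The part of these markers in the CTSS values was not tested.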

How the data were processed

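Poly(A) RNA of 6 CFPAC1 libraries was analysed. The authors deposited raw read counts for each gene, whole numbers in the layout of featureCounts output (per the file headers). The tools and build named are featureCounts 0.6.1, edgeR 3.2.2 and GRCh38 (hg38), per the submitters' processing notes. The sources used here give no aligner, annotation or strand setting. No count column lacked a sample.

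Symbols for 19342 identifiers came from current names and 56 from GENCODE 29, and 4 had none. In R 4.3.3, edgeR 4.0.16 was run with filterByExpr, TMM factors, robust fits and its two-sided quasi-likelihood F test, with Benjamini-Hochberg adjustment over 13388 genes and a threshold of 0.05. Standard errors are those implied by the F statistic. Levels per kilobase use the exon length in the file. Log2 CPM has a prior count of 2. The GC correction enters as an offset, a natural spline with 5 df fitted in every library to log2 deviations against transcript GC content (GENCODE 29). Counts were simulated for the IRF1-KO against WT comparison over 13274 genes. The test recovered 66% of genes changed 2-fold and 98% at 4-fold, with 7 false calls. The changed genes all had a mean over 5 CPM, and every gene was given the spread typical of its level. Genes that vary more between pools, or are less abundant, may be recovered less often. Libraries of a group differed beyond sampling noise (chi-square per degree of freedom 25.8 to 55.0).

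The alternatives tried were RLE or upper-quartile scaling, no filter or a stricter one (5 CPM in 3 libraries), DESeq2 1.42.0, limma-voom (3.58.1), the replicate block, the GC correction and leaving out each library. Named were IRF1, the 10 members, for each list the genes past the threshold (at most 4) or else the gene with the smallest p, and the 5 genes most like CTSS. Outside this rule, CTSK, LGMN, CSTB, CST3, GLB1, NEU1, CD74, HLA-DRA and single marker genes (KRT8, CFTR, PTPRC, TYROBP, CD68, LYZ, CD14, ITGAM, ITGAX, COL1A1) were named after their values were seen. The members and lists were chosen with earlier results of these data known.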

Additional observations from a re-analysis of the deposited data

How the results depend on the processing

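The log2 fold change of CTSS was negative under all 15 alternatives (−1.95 to −1.16), as was its difference from the median of the other cathepsins (−1.82 to −1.05 when 1 library was left out). The groups of CTSS did not overlap and CTSS was chosen for its lower counts, so its negative sign is no check. The sign of CTSA and CTSH varied, at 3 of 15 and 13 of 15 alternatives below zero, and CTSD moved beyond the spread of its replicates with the GC correction (0.15) and with it and the replicate block (0.14). With the stricter filter CTSE was not tested. The count of all genes past the threshold, 17, was 31 with no filter, 332 with DESeq2, 31 with the replicate block and 11 with the GC correction and the block. It ranged from 3 to 91 when 1 library was left out (91 when it was WT replicate 3, 5 when it was WT replicate 2, and 3 when it was IRF1-KO replicate 1 or 3). The cause was not tested. Cathepsins past it numbered 1 with DESeq2 and 0 to 1 with 1 library left out (1 without WT replicate 3), and genes of the pathway lists numbered 3 with DESeq2. Of the 5 genes most like CTSS, 2 stayed when a mean of at least 10 CPM was asked, since the other 3 lie under it. The deviations of same-numbered libraries correlated at −0.02, 0.25 and 0.06, and those of differently numbered ones at −0.295 to 0.245. With 3 pools per group these values cannot show whether same-numbered libraries shared a batch. With the replicate block CTSS was at −1.52. Counts under 100 per library limit the precision of CTSE.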
